A study of Mus musculus with 18 samples.

Results

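CA3 pyramidal neurons were studied in 9 hippocampus (Hip) libraries of single-nucleus RNA, 1 per mouse. Kun Ming mice, all 8 weeks old, were germ-free (GF, mice 5, 6 and 7), specific pathogen-free (SPF, mice 30, 31 and 32) or colonized germ-free (CGF, mice 17, 18 and 19), the last being GF mice that had been reared with SPF mice. GF mice carry no microbes, and SPF mice carry a microbiota without listed pathogens. GF mice were allocated at random to stay GF or to become CGF and were kept in flexible-film isolators, while SPF mice were raised under other conditions, so that in GF against SPF the microbiota, the housing, the colony and the handling of the libraries cannot be told apart.

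Nuclei were taken from all kept Hip nuclei by their raw UMIs (unique molecular identifiers, each standing for 1 captured RNA molecule). A nucleus was a member when its UMIs of Grik4, Galnt3, Iyd and Rnf182 summed to 4 or more, it held at least 1 UMI of the glutamatergic gene Slc17a7, and it held at most 1 UMI each of the dentate gene Prox1, of the CA1 genes Mpped1, Fibcd1 and Wfs1 together, of the interneuron genes Gad1 and Gad2 together, and of 6 glial and vascular genes together. Of 71398 kept Hip nuclei and 138000 kept nuclei of Hip and prefrontal cortex, 5797 were members. They numbered 729, 587 and 744 in GF mice, 561, 676 and 618 in SPF mice and 611, 666 and 605 in CGF mice, and are called CA3-rule nuclei below.

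CA3 pyramidal neurons receive the mossy fibres of dentate granule cells on large spines close to the soma and excite one another through recurrent collaterals, a wiring held to serve the storage and completion of memory patterns. Their mossy fibre synapses are rich in kainate receptors, to which the rule gene Grik4 contributes a subunit. They send the Schaffer collaterals to CA1, fire in bursts, and are known as sensitive to stress hormones and to seizures.

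Of 14 CA3 genes that the rule did not use, 11 had a higher mean in the CA3-rule nuclei than in both CA1 and dentate granule nuclei chosen by mirror-image rules (2839 and 3541 nuclei), 6 of them without overlap between mice. Levels are CPM, counts scaled to a fixed library total, of the sum of a mouse's nuclei, with library size scaled by TMM, given as mean ± SD over 9 mice and described with no test because nuclei were picked by their own counts. Nectin3, a cell adhesion molecule, stood at 221 ± 37.6 CPM in CA3-rule nuclei, 31.2 ± 5.71 in CA1 nuclei and 17.8 ± 7.499 in dentate granule nuclei. Spock1, a secreted proteoglycan, stood at 811 ± 177, 154 ± 57.2 and 34.1 ± 13.1 CPM in the same order. The transcription factor Trps1 reached 1126 ± 241 CPM against 199 ± 104 and 74.5 ± 30.8. In these 3 genes the lowest CA3 sum lay above the highest CA1 and dentate sums. Cpne4, a copine, and Elavl2, an RNA-binding protein, were also higher in CA3-rule nuclei than in CA1 and dentate granule nuclei. They stood at 902 ± 209 and 291 ± 54.3 CPM in CA3-rule nuclei and 125 ± 30.3 and 92.6 ± 18.6 in CA1 nuclei. CA2 nuclei were not among those compared here. The other 3 were not highest in CA3-rule nuclei. Ociad2 stood at 68.2 ± 10.2 CPM there and 100.01 ± 19.1 in CA1 nuclei, St18 at 127 ± 36.8 CPM against 289 ± 58.7 in dentate granule nuclei, and Mas1 at 20.1 ± 4.78 against 20.9 ± 7.49. The rule gene Grik4, given only as a description, stood at 946 ± 118, 43.2 ± 7.58 and 147 ± 13.6 CPM. Against the label, the dentate granule gene Dock10, a guanine nucleotide exchange factor, stood at 152 ± 42.6 CPM in CA3-rule nuclei, above the 39.9 ± 10.3 of CA1 nuclei and below the 928 ± 180.5 of dentate granule nuclei.

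The CA3-rule nuclei were therefore clustered, and the label held for about as many nuclei as it did not. Of 23 clusters, 8 were CA3-like by markers and held 2764 nuclei (47.7%), from 42.7 to 54.3% of the members of a mouse. Another 3 clusters with 1054 nuclei (18.2%) were dentate granule-like, 12.1 to 25.3% per mouse. Smaller classes were subiculum and cortex-like (328 nuclei, 5.66%), CA1-like (289, 4.99%), CA2-like (249, 4.30%) and oligodendrocyte precursor (OPC)-like (69, 1.19%), and 6 clusters with 1044 nuclei (18.01%) stayed unnamed. The classes differed in the genes that named them: pooled Nectin3 was 341 CPM in CA3-like and 20.7 CPM in dentate granule-like clusters, whereas Dock10 was 31.5 and 985 CPM. The CA2 gene Rgs14 stood at 57.7 CPM in CA2-like clusters and Man1a at 734 CPM in CA1-like clusters. Cpne4, Spock1 and Elavl2 were higher in CA2-like (1690, 1145 and 441 CPM) than in CA3-like clusters (1094, 1038 and 370 CPM). Nectin3 and Trps1 were lower in CA2-like clusters, at 80.9 and 145 CPM against 341 and 1610 CPM. One unnamed cluster of 222 nuclei raised 4 of 5 mossy cell markers, among them Csf2rb2 (89.7 CPM), Calb2 (64.2 CPM) and Drd2 (36.6 CPM). Its leading genes held none of these and 1 marker of another type. Trps1 stood at 3160 CPM there, above its level in any CA3-like cluster. Every result on groups that follows is for all CA3-rule nuclei, with the value in CA3-like clusters for genes of the naming rule whose call differs there.

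**Figure D1:**
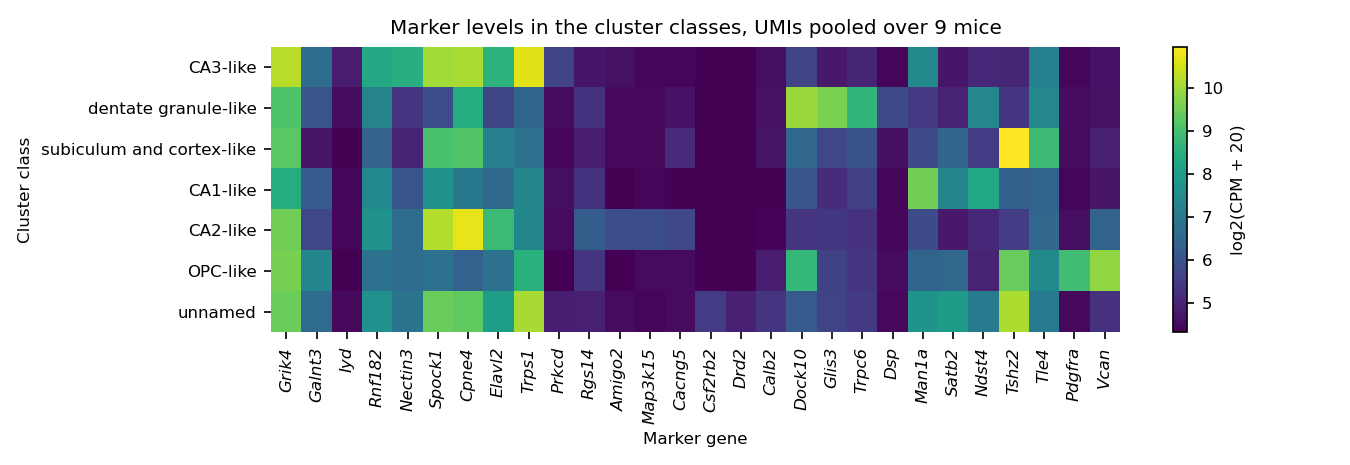
Heat map of 27 marker genes and Prkcd (columns) in the 7 cluster classes of CA3-rule nuclei (rows). Colour gives log2 of CPM plus 20, from UMIs pooled over 9 mice. Nectin3 and Trps1 are brightest in the CA3-like row, Dock10 in the dentate granule-like row, Man1a in the CA1-like row and Tshz2 in the subiculum and cortex-like row. Cpne4, Spock1 and Elavl2 are brightest in the CA2-like row.

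The class of a nucleus followed how many marker UMIs it held. Of the 981 nuclei at the lower limit of 4 marker UMIs, 5.403% were in CA3-like and 45.8% in dentate granule-like clusters. From 5 to 6 marker UMIs (1076 nuclei) the CA3-like share was 8.46%, from 7 to 10 (913 nuclei) 33.6%, from 11 to 20 (1355 nuclei) 74.98%, and above 20 (1472 nuclei) 88.1%. Nuclei just inside and just outside the limit were alike in markers the rule did not use: with 4 marker UMIs, pooled Nectin3, Spock1 and Trps1 stood at 38.7, 232 and 148 CPM, and in the 1576 nuclei with 3 that met all else at 33.6, 204 and 123.5 CPM, while Dock10 stood at 438 and 436 CPM. Median depth in these nuclei was 6337 to 7444 UMIs inside and 5378 to 7158 outside, against 8445 to 12494 UMIs over all members. The same rule also took 3009 prefrontal cortex nuclei, where no CA3 exists. In 70.3 to 87.8% of those, per library, Grik4 was the only one of the 4 marker genes found, against 13.6 to 24.8% of the Hip members.

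**Figure D2:**
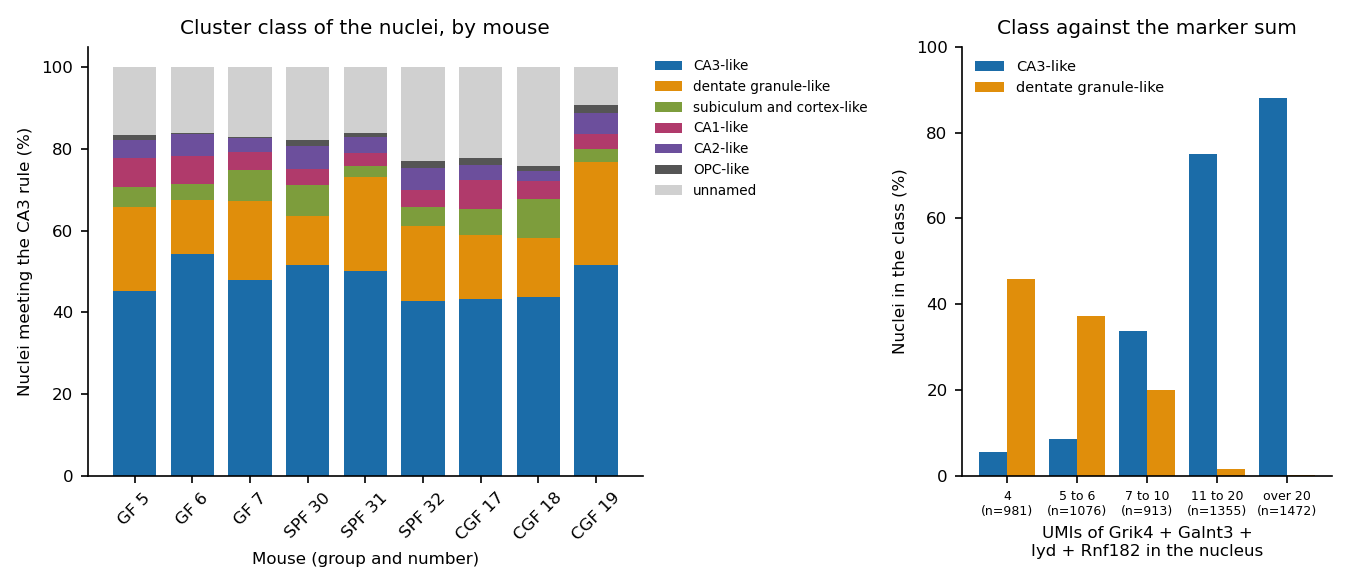
Left, percent of CA3-rule nuclei in each cluster class for each of the 9 mice, as stacked bars, and right, percent of nuclei in CA3-like and dentate granule-like clusters against the marker UMIs of the nucleus. The CA3-like share per mouse runs from 42.7 to 54.3%, and rises with marker UMIs from 5.403 to 88.1%.

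The CA3-like clusters differed among themselves. The cluster of 752 nuclei led by Trps1 held that gene at 2665 CPM and Prkcd, a protein kinase C, at 55.8 CPM, while the cluster of 636 nuclei led by Kcnq5, with Neto1 also among its leading genes, held Trps1 at 1052 and Prkcd at 5.75 CPM. A pair of clusters had St18 as its first or second leading gene and another of 77 nuclei (42 from GF, 25 from SPF and 10 from CGF mice) by activity-induced genes, Nr4a3, Bdnf, Nr4a2 and Homer1. GF nuclei kept mostly to themselves: of 1005 CA3-like nuclei of GF mice 940 (93.5%) were in 4 clusters made mostly of GF nuclei, against 76 of 892 (8.52%) of SPF mice and 26 of 867 (3.00%) of CGF mice. The largest of those 4, of 559 nuclei, was led by Tmod3, Prkcd and Trps1, and another, of 310 nuclei, by mitochondrially encoded genes. CA3-like values of GF mice thus come from clusters other than those that hold most SPF and CGF nuclei.

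RNA of other cell types was present in the sums. Over the whole dentate granule list of 7 genes, none of them at 0, CA3-rule nuclei held 189 to 289 CPM in GF mice, 244 to 429 in SPF mice and 359 to 549.6 in CGF mice. The oligodendrocyte list of 5 genes, also with none at 0, summed to 109 to 116 CPM in GF mice, 162 to 252 in SPF mice and 142 to 194 in CGF mice, and the astrocyte list of 5 to 157 to 195, 189 to 292 and 244 to 282 CPM. GF mice did not overlap with the others in the oligodendrocyte sum and overlapped with SPF mice in the astrocyte sum. Fgfr3 fell in GF relative to SPF, by edgeR's quasi-likelihood test with Benjamini-Hochberg adjustment (log2 fold change -1.62 (adjusted p = 0.00106)), and in all 3 of 5 oligodendrocyte and 2 of 5 astrocyte genes fell. Of 7 dentate granule genes 1 rose and 0 fell, and of 3 OPC genes 0 rose and 1 fell. Of all tested genes 21.6% fell and 24.1% rose. Of 7 interneuron markers 3 rose (Pvalb 1.56, Lamp5 1.197, Vip 0.72). Of 4 microglial markers 2 rose (C1qa 1.16, P2ry12 0.79) and 1 fell. Levels were low, with means over all mice of 3.17 CPM for Pvalb, 3.22 for Vip, 2.56 for C1qa and 3.40 for Fgfr3. Lamp5 stood at 8.30 and P2ry12 at 29.9 CPM. The choroid plexus marker Ttr ranged from 3.94 to 1322 CPM in GF mice, 63.2 to 522 in SPF mice and 4.26 to 180 in CGF mice. It did not pass (log2 fold change 1.31 (adjusted p = 0.439) against SPF). These glial, choroid plexus and interneuron genes were named after their values were seen. By cluster, the dentate granule list summed to 1853 to 2495 CPM in the 3 dentate granule-like clusters and to 35.5 to 181 CPM in the 8 CA3-like ones, and the astrocyte list to 734 to 979.7 and 50.7 to 167 CPM. The astrocyte list gene Slc4a4 stood at 166 ± 37.5 CPM in CA3-rule and 988 ± 129.8 CPM in dentate granule nuclei. Slc1a3, the next highest of that list, stood at 39.9 ± 13.02 and 79.3 ± 24.6 CPM, so most of the astrocyte sum was Slc4a4. Whole nuclei of other types and free RNA were not told apart, and their part in the results was not tested. Nuclei with the highest doublet scores were marked as likely doublets, in a preset share that followed the number of nuclei in the library. That share was 5.16 to 7.02% of all nuclei, and 2.95 to 7.66% of a library's members were marked. Any 2 libraries shared at most 29 barcodes.

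The libraries of the GF mice stood apart. Sums held 5456271 to 8798663 UMIs per mouse, and log-CPM over all tested genes correlated at 0.9792 or more within a group, at 0.9729 to 0.9827 between SPF and CGF mice, and at 0.9383 to 0.9581 between GF mice and the others. Mitochondrial genes took 0.645 to 1.10% of all UMIs of a GF library, 0.128 to 0.471% of an SPF library and 0.077 to 0.218% of a CGF library. A GF member held a median of 8813 ± 426 UMIs (SD, n = 3 mice) against 11623 ± 951 in SPF and 10913 ± 1390 in CGF mice. No GF mouse overlapped with an SPF or CGF mouse in this, which in an exact two-sided permutation test gave p = 0.1 for each, the smallest that 3 against 3 mice allow, and p = 0.0464 over the 3 groups. With a mouse left out, the exact permutation test over the 3 groups gave p = 0.00714 (without CGF 17) to p = 0.121 (without GF 6).

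As to their number, CA3-rule nuclei made up 8.10 ± 1.22% of kept Hip nuclei in GF mice, 8.25 ± 0.820% in SPF and 8.17 ± 1.12% in CGF mice (SD, n = 3 mice each). The ranges of the 3 groups overlapped (exact permutation test, p = 0.986 over the 3 groups, and 0.9, 1 and 0.9 for GF against SPF, GF against CGF and CGF against SPF). A threshold in UMIs depends on depth, so all nuclei of 5000 UMIs or more were thinned to 5000, which left out 2211 to 4700 shallower nuclei per library. At this equal number of UMIs per nucleus the members made up 10.9 ± 1.29% of GF, 8.54 ± 1.15% of SPF and 8.23 ± 0.751% of CGF nuclei, and no GF mouse overlapped with another (9.99 to 12.3% against 7.28 to 9.53% and 7.47 to 8.97%). The exact permutation test gave p = 0.1 for GF against SPF and against CGF and p = 0.0393 over the 3 groups. Unthinned, the same nuclei gave 13.1 to 15.3% in GF mice, 12.1 to 14.4% in SPF mice and 11.9 to 14.02% in CGF mice, with overlap of all groups. Before TMM scaling, members held Rnf182 at 274 to 370 CPM in GF and 192 to 218 in other mice. Slc17a7 stood at 323 to 351 and 188 to 244 CPM. Galnt3 stood at 82.2 to 89.3 CPM in GF and 53.9 to 74.98 CPM in other mice. Grik4 overlapped, and Iyd was lower in GF than in SPF mice. Their part in the thinned share was not tested. Unthinned CA3-like clusters held 3.94 ± 0.265% of GF, 3.99 ± 0.692% of SPF and 3.75 ± 0.396% of CGF nuclei (exact permutation test, p = 0.789 over the 3 groups). Fewer cells of a type and fewer captured nuclei of it cannot be told apart.

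Between GF and SPF mice, 45.7% of the tested genes differed in CA3-rule nuclei. Higher in GF mice were 63 of 74 oxidative phosphorylation, 57 of 72 ribosomal protein and 10 of 16 immediate early genes, and lower were 5 of 6 NMDA receptor, 10 of 14 GABA receptor, 8 of 12 mossy fibre synapse and 17 of 28 sodium and calcium channel genes. With gene length and GC content taken out, as described below, these counts became 34, 17 and 7 higher, and 3, 1, 3 and 5 lower. In CA3-like clusters 3 of 5 NMDA receptor, 12 of 14 GABA receptor and 8 of 12 mossy fibre synapse genes were lower. Of 14621 genes, edgeR's quasi-likelihood test called 6687 of them (45.7%) at an adjusted p under 0.05, 3524 higher (24.1%) and 3163 lower (21.6%) in GF mice, and in 54.6% of genes the GF and SPF mice did not overlap. In CA3-like clusters 6052 of 12736 genes were called (47.5%), 5539 of them among the 6687. Since long and short genes moved differently, as given next, the fit was repeated after taking out how the counts of a library ran with gene length and GC content (called the length and GC trend below). That left 3909 calls (26.7%), 13.1% of genes higher and 13.6% lower, with 2938 among the 6687.

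The direction followed the genomic span of the gene. Called genes that were higher in GF mice spanned a median of 10.4 kb, called genes that were lower 86.7 kb, and the others 26.6 kb. In the tenth of genes with the shortest span (median 3.16 kb) the median log2 fold change was 0.89 and 60.4% were called higher. In the tenth with the longest span (median 261 kb) it was -0.43 and 60.9% were called lower. GF against CGF gave 0.99 and -0.51 for the same sets, and CGF against SPF -0.10 and 0.07. Most neuronal receptor, channel and adhesion genes are long and most mitochondrial and ribosomal protein genes short, so the function lists below carry their counts with the trend removed. Each list is to be read beside the 45.7% of all genes called in GF against SPF, and 26.7% with the trend removed. Whether the trend is technical or biological was not tested.

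**Figure D3:**
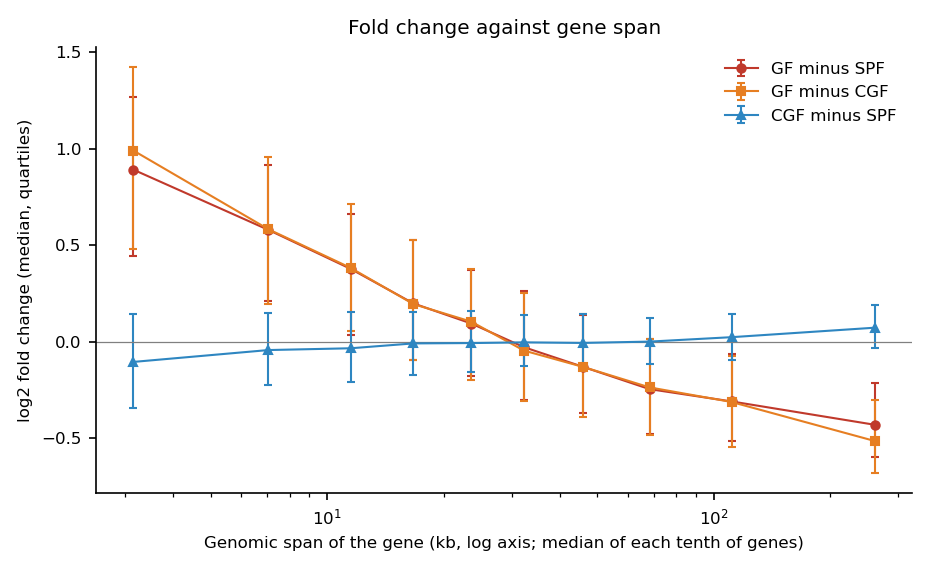
Median log2 fold change (points) with the quartiles (bars) of tested genes in 10 classes of genomic span, from short to long on a log axis in kb, for the 3 comparisons of groups. GF minus SPF and GF minus CGF fall from 0.89 and 0.99 in the shortest class to -0.43 and -0.51 in the longest, while CGF minus SPF goes from -0.10 to 0.07.

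Of the kainate receptor genes outside the rule, which carry the slow current of the mossy fibre synapse, 2 of 6 fell in GF relative to SPF and 0 rose (median log2 fold change -0.11, against 0.033 over all genes). This share was under the 45.7% of all tested genes that were called. The shares called among the AMPA receptor, metabotropic receptor, stress hormone, neurotrophin and potassium channel genes below were also under 45.7%. Neto1, an auxiliary subunit of kainate receptors (chromosome 18), stood at 418, 394 and 462 CPM in GF mice, 735, 728 and 604 in SPF mice and 809, 840.1 and 767 in CGF mice. All GF mice were below all others (log2 fold change -0.70, SE 0.09, adjusted p = 0.000118). Grik2, which encodes the main pore-forming subunit GluK2 (chromosome 10, 49094833 to 49788766, minus strand, coordinates here and below on GRCm38/mm10 with GENCODE vM21), stood at 1540.0, 1217 and 1327 CPM in GF mice, 1742, 2067 and 1660.0 in SPF mice and 2358, 2314 and 2239 in CGF mice. It fell as well (log2 fold change -0.42, SE 0.10, adjusted p = 0.00427), but not with the length and GC trend removed (0.059, adjusted p = 0.615), whereas Neto1 did (-0.40, adjusted p = 0.00251). Grik3, Grik5 and Neto2 did not pass the test, at -0.04 (adjusted p = 0.932), -0.046 (adjusted p = 0.683) and 0.032 (adjusted p = 0.825). Grik1 did not pass over all CA3-rule nuclei (-0.18 (adjusted p = 0.683)), where SPF mice ranged from 14.1 to 40.4 CPM. In CA3-like clusters alone it stood at 1.98, 3.96 and 3.43 CPM in GF and 7.799, 8.29 and 12.5 in SPF mice and fell (-1.59, adjusted p = 0.000906).

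AMPA receptor genes, which encode the fast excitatory receptor and its auxiliary proteins, went both ways, with 4 of 19 higher and 4 lower in GF mice (median -0.04; 4 higher and 1 lower with the trend removed). Gria1, the GluA1 subunit (chromosome 11, 57011387 to 57330244, plus strand), stood at 1973, 1998 and 2093 CPM in GF mice, 3442, 3335 and 3204 in SPF mice and 3306, 3188 and 3445 in CGF mice. GF mice lay well under both other groups (log2 fold change -0.72, SE 0.061, adjusted p = 1.54e-05, and -0.30, adjusted p = 0.00566 with the trend removed). Gria2, the subunit that makes the channel impermeable to calcium, had -0.20 (adjusted p = 0.13), and fell without SPF 32 (-0.33, adjusted p = 0.0112). Cnih2, a cornichon protein that slows AMPA receptor closing (chromosome 19, 5092868 to 5098521, minus strand), stood at 47.6, 74.5 and 52.8 CPM in GF mice, 20.998, 19.8 and 32.7 in SPF and 16.6, 16.2 and 27.2 in CGF mice and rose (log2 fold change 1.25, SE 0.23, adjusted p = 0.00113). Nptx1, a pentraxin that gathers AMPA receptors, rose by 0.73 (adjusted p = 0.00172), which the removed trend ended (0.23, adjusted p = 0.216), and Shisa6 fell by 0.47 on the log2 scale (adjusted p = 0.000277; trend removed -0.056, adjusted p = 0.627). The other calls, named after their values were seen, were Nptxr (0.66) and Cacng8 (0.26) upward and Gria3 (-0.55) and Gria4 (-0.55) downward.

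NMDA receptor genes, which encode the receptor that admits calcium for plasticity, fell in 5 of 6 cases and rose in 1 (median -0.44; 3 lower and 2 higher with the trend removed). Grin1, the subunit every NMDA receptor needs (chromosome 2, 25291181 to 25319187, minus strand), stood at 433, 411 and 404 CPM in GF mice, 571, 585 and 544 in SPF mice and 547, 561 and 510.2 in CGF mice, with GF mice lowest (log2 fold change -0.44, SE 0.067, adjusted p = 0.000298). It also fell with the trend removed (-0.50, adjusted p = 0.000541). Grin2a, a subunit of mature synapses, stood at 2083, 1960.4 and 2003 CPM in GF and 2735, 2726 and 2715 in SPF mice (log2 fold change -0.44, SE 0.058, adjusted p = 0.000143), a fall that ended with the trend removed (0.016, adjusted p = 0.877). Grin2b, a subunit with slow currents, fell by 0.23 on the log2 scale (adjusted p = 0.00722) and turned to 0.23, adjusted p = 0.0126 with the trend removed. Grin2d rose at a low level, from 5.39, 4.54 and 5.64 CPM in SPF to 9.502, 9.18 and 9.54 in GF mice (log2 fold change 0.86, SE 0.17, adjusted p = 0.0015). It did not pass in CA3-like clusters (0.63, adjusted p = 0.0896), with thinned nuclei (0.73, 0.102) or with a marker limit of 11 (0.49, 0.141). Grin3a (-0.78) and Grin2c (-1.56) also fell, named after their values were seen, Grin2c at under 4 CPM in every mouse. In CA3-like clusters 5 genes of this list were tested, of which 3 fell and 0 rose. The lowest log2 fold change there was -0.56, so falls of the size of Grin3a and Grin2c were not seen.

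Of 7 metabotropic glutamate receptor genes, which act through G proteins, 3 fell and 0 rose (median -0.40), while with the trend removed 0 fell and 1 rose. Grm5, the postsynaptic mGluR5, stood at 2004, 1884 and 1923 CPM in GF mice, 2898, 2621 and 2320.1 in SPF mice and 2995, 2998 and 3096 in CGF mice (log2 fold change -0.43, SE 0.078, adjusted p = 0.000884; trend removed 0.044, adjusted p = 0.687). Grm7, a presynaptic receptor, fell by 0.58 (adjusted p = 0.000149; trend removed -0.088, adjusted p = 0.34). GABA receptor genes, which carry inhibition, fell in 10 of 14 cases and rose in 1 (median -0.46), but in 1 and 1 with the trend removed. The share with the trend removed was under the 26.7% of all genes. Gabra2, an alpha subunit (chromosome 5, 70957597 to 71095849, minus strand), stood at 424, 369 and 412 CPM in GF mice, 644, 663 and 559 in SPF mice and 758, 676 and 691 in CGF mice, all GF mice lowest (log2 fold change -0.63, SE 0.086, adjusted p = 0.00016, and -0.30, adjusted p = 0.00903 with the trend removed). Gabrb1, a beta subunit, fell by 0.59 (adjusted p = 4.65e-05; trend removed -0.12, adjusted p = 0.199). Gabbr1, a subunit of the metabotropic GABA-B receptor, was the 1 that rose, from 111, 115 and 126 CPM in SPF to 141, 160.1 and 164 in GF mice (log2 fold change 0.40, SE 0.081, adjusted p = 0.00171).

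**Figure D4:**
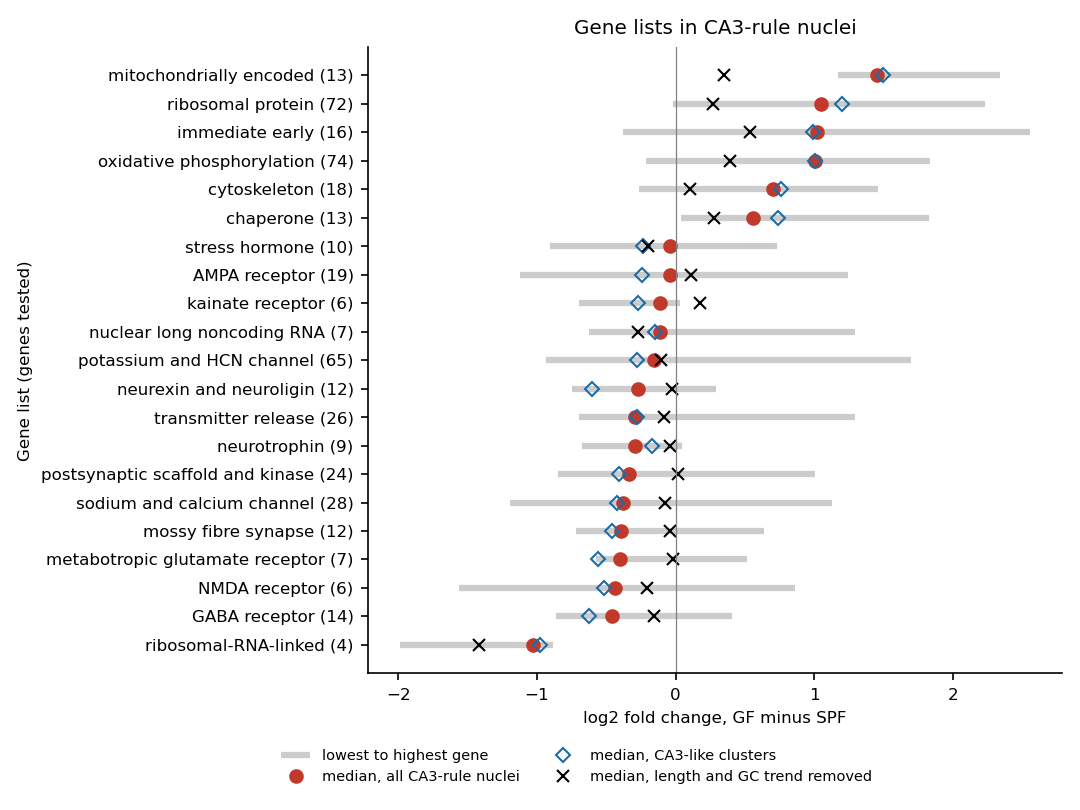
Log2 fold change of GF minus SPF for 21 gene lists, with the number of genes tested in brackets. Bars run from the lowest to the highest gene, filled points are medians over all CA3-rule nuclei, open diamonds medians in CA3-like clusters and crosses medians with the length and GC trend removed. The mitochondrially encoded median moves from 1.46 to 0.35 and the GABA receptor median from -0.46 to -0.15 when the trend is removed.

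The mossy fibre synapse list, made of adhesion molecules and organizers known at this synapse, fell in 8 of 12 genes and rose in 1 (median -0.39; 3 lower and 1 higher with the trend removed). Gpr158, an orphan receptor on the CA3 side of that synapse (chromosome 2, 21367542 to 21830547, plus strand), stood at 468, 439 and 457 CPM in GF mice, 711, 632 and 642 in SPF mice and 711, 692 and 644 in CGF mice. GF mice were lowest (log2 fold change -0.54, SE 0.071, adjusted p = 0.00014), but the fall ended with the trend removed (-0.09, adjusted p = 0.296). Afdn, the afadin that ties nectins to actin, fell by 0.52 (adjusted p = 0.000151). Its partner Nectin3 had -0.16 (adjusted p = 0.191) and passed only when mouse SPF 32 was left out (-0.29, adjusted p = 0.0124) or the marker limit was 3 (-0.29, adjusted p = 0.0393). Igsf8, an immunoglobulin-type surface protein, rose from 31.9, 24.3 and 27.5 CPM in SPF to 39.7, 43.2 and 47.2 in GF mice (log2 fold change 0.64, SE 0.14, adjusted p = 0.00314), with 0.43 and adjusted p = 0.0622 with thinned nuclei. Among neurexins, neuroligins and their partners 6 of 12 fell and 1 rose (median -0.27; 1 and 1 with the trend removed). Nrxn3, a presynaptic neurexin (chromosome 12, 88722876 to 90334935, plus strand), stood at 4645, 4552 and 4244 CPM in GF and 8002, 7563 and 6962 in SPF mice (log2 fold change -0.75, SE 0.066, adjusted p = 1.88e-05, and -0.23, adjusted p = 0.0226 with the trend removed). Nlgn1 fell by 0.58 (adjusted p = 0.00014; trend removed -0.079, adjusted p = 0.383). Lrrtm1, which binds neurexins, rose by 0.29 (adjusted p = 0.0234), a call lost without GF 7 (0.27, adjusted p = 0.074), SPF 30 (0.23, 0.0978) or SPF 31 (0.29, 0.0598), with thinned nuclei (0.24, 0.172). It was also lost without a filter (0.29, 0.0548), by DESeq2 (0.26, 0.116) or with the trend removed (-0.0061, adjusted p = 0.968).

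Genes of transmitter release fell in 15 of 26 cases and rose in 3 (median -0.29; 6 lower and 1 higher with the trend removed). Syt1, the calcium sensor of vesicle fusion (chromosome 10, 108497650 to 109010982, minus strand), stood at 3054, 2700.4 and 2839 CPM in GF mice, 5117, 4700.02 and 4106 in SPF mice and 5068, 5279 and 4887 in CGF mice, with GF mice lowest (log2 fold change -0.70, SE 0.083, adjusted p = 7.68e-05). Rims1, an active zone scaffold, fell by 0.59 (adjusted p = 0.000102; trend removed -0.13, adjusted p = 0.201). Slc30a3, the zinc transporter of synaptic vesicles (chromosome 5, 31086106 to 31108237, minus strand), went the other way, with 43.8, 55.3 and 57.3 CPM in GF mice, 18.6, 22.8 and 22.005 in SPF mice and 22.3, 19.8 and 21.5 in CGF mice (log2 fold change 1.296, SE 0.12, adjusted p = 2.48e-05). It also rose with the trend removed (1.15, adjusted p = 4.68e-05). The SNARE gene Vamp2 rose by 0.68 (adjusted p = 0.0119), which was lost without SPF 30 (0.59, adjusted p = 0.0518) or SPF 31 (0.56, 0.0528) and turned to -0.11, adjusted p = 0.552 with the trend removed. The third rise, Syp, was 0.41 and was named after its values were seen. Of 24 postsynaptic scaffold and kinase genes 14 fell and 4 rose (median -0.33; 3 and 4 with the trend removed). Dlg2, a PSD-95 relative, fell by 0.59 (adjusted p = 0.000101; trend removed -0.064, adjusted p = 0.395), and Camk2g, a CaM kinase II, by 0.85 (adjusted p = 7.62e-05; trend removed -0.69, adjusted p = 0.000395). Camk2a, the abundant form of that kinase, had -0.048 (adjusted p = 0.594). Nrgn, which binds calmodulin, rose by 1.004 (adjusted p = 0.000585) and Dlg4, named after its values were seen, by 0.39.

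Of 65 potassium and HCN channel genes, which set excitability, 20 fell and 5 rose in GF relative to SPF (median -0.15; 8 and 4 with the trend removed). The shares of all genes called were 45.7% and 26.7%. Kcnq5, an M-type channel (chromosome 1, 21398403 to 21961942, minus strand), stood at 2495, 2664 and 2712 CPM in GF mice, 4225, 4137 and 3979 in SPF mice and 4802, 4462 and 4171 in CGF mice, with GF mice lowest (log2 fold change -0.65, SE 0.068, adjusted p = 4.3e-05; trend removed -0.18, adjusted p = 0.052). The large-conductance channel gene Kcnma1 fell by 0.80 (adjusted p = 2.34e-05; trend removed -0.32, adjusted p = 0.00257). Hcn2, a channel of the hyperpolarization-activated current (chromosome 10, 79716634 to 79736108, plus strand), rose from 35.4, 32.2 and 34.4 CPM in SPF to 53.5, 61.4 and 56.7 in GF mice (log2 fold change 0.75, SE 0.09, adjusted p = 7.81e-05, and 0.59, adjusted p = 0.000393 with the trend removed). Kcnq1 rose (log2 fold change 0.98, SE 0.093, adjusted p = 2.44e-05). The noncoding Kcnq1ot1 fell (log2 fold change -0.54, SE 0.067, adjusted p = 9.68e-05). Both lie on opposite strands of one locus (chromosome 7, 143106362 to 143427042, plus strand for Kcnq1). Whether reads of one were counted for the other was not tested. The other rises, named after their values were seen, included Kcnj13 (0.53) and the noncoding Kcnmb4os2 (1.698), which the name pattern of the list took in. Of 28 sodium and calcium channel genes 17 fell and 2 rose (median -0.38; 5 and 1 with the trend removed). Cacna2d3, an auxiliary calcium channel subunit, fell by 0.75 (adjusted p = 8e-05; trend removed -0.27, adjusted p = 0.0484), and Cacnb2 by 0.59 (adjusted p = 6.74e-05; trend removed -0.14, adjusted p = 0.233). The sodium channel beta subunit Scn2b rose by 0.47 (adjusted p = 0.0147), but not without SPF 31 (0.32, adjusted p = 0.0577) or with the trend removed (0.10, adjusted p = 0.614). With thinned nuclei the log2 fold change was 0.47 as well, with adjusted p = 0.0614.

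Both receptors for corticosteroids were lower in GF mice. Nr3c2, the mineralocorticoid receptor (chromosome 8, 76899442 to 77245012, plus strand), stood at 701, 544 and 599 CPM in GF mice, 1087, 1219 and 1157 in SPF mice and 1206, 953 and 1041 in CGF mice. GF mice did not reach the lowest mouse of either other group (log2 fold change -0.91, SE 0.11, adjusted p = 6.85e-05; trend removed -0.49, adjusted p = 0.00313). Nr3c1, the glucocorticoid receptor (chromosome 18), stood at 39.1, 39.1 and 40.6 CPM in GF mice, 59.7, 57.9 and 63.7 in SPF mice and 66.6, 64.2 and 61.7 in CGF mice (log2 fold change -0.61, SE 0.074, adjusted p = 8.76e-05; trend removed -0.31, adjusted p = 0.0115). In CA3-like clusters it stood at 18.8, 17.5 and 17.8 CPM in GF and 42.4, 44.3 and 42.6 in SPF mice (-1.25, adjusted p = 1.13e-05). Of the 10 stress hormone genes tested, 3 fell and 1 rose (median -0.04; 2 and 0 with the trend removed). With the trend removed 26.7% of all genes were called. Sgk1, a kinase induced by corticosteroids, was the third fall (-0.51 (adjusted p = 0.00107); trend removed -0.22, adjusted p = 0.1), and Fkbp4, a co-chaperone of the receptor, the rise (0.73 (adjusted p = 0.00685); trend removed 0.23, adjusted p = 0.364). The receptor targets Fkbp5, Per1 and Tsc22d3 did not pass, at -0.075 (adjusted p = 0.725), 0.12 (adjusted p = 0.442) and 0.22 (adjusted p = 0.501). Nor did Hsd11b1, Crhbp and Crhr1, at 0.002 (adjusted p = 0.996), 0.032 (adjusted p = 0.958) and -0.41 (adjusted p = 0.0991), Crhr1 passing only without SPF 30 (-0.55, adjusted p = 0.0445). Of 9 neurotrophin genes 4 fell and 0 rose (median -0.30; 0 and 1 with the trend removed). Sorcs3 and the receptor Ntrk3 fell by 0.56 and 0.51 (adjusted p = 0.00187 and 0.000201; trend removed -0.10, adjusted p = 0.504 and -0.042, adjusted p = 0.721), and Sort1, named after its values were seen, by 0.20. Bdnf stood at 51.9, 43.6 and 51.8 CPM in GF mice, 69.6, 56.1 and 55.7 in SPF mice and 53.9, 53.3 and 58.1 in CGF mice. Its fall (log2 fold change -0.30, SE 0.10, adjusted p = 0.0359) was lost without GF 6 (-0.22, 0.13), GF 7 (-0.33, 0.0511) or SPF 30 (-0.19, 0.168). It was also lost with only the 2 groups (-0.29, 0.056), with marker limits of 6 (-0.25, 0.0509) and 11 (-0.20, 0.119), with thinned nuclei (-0.20, 0.185) and with the trend removed (-0.14, adjusted p = 0.299). Its receptor gene Ntrk2 had 0.046 (adjusted p = 0.716), and 0.46, adjusted p = 0.00131 with the trend removed.

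**Figure D5:**
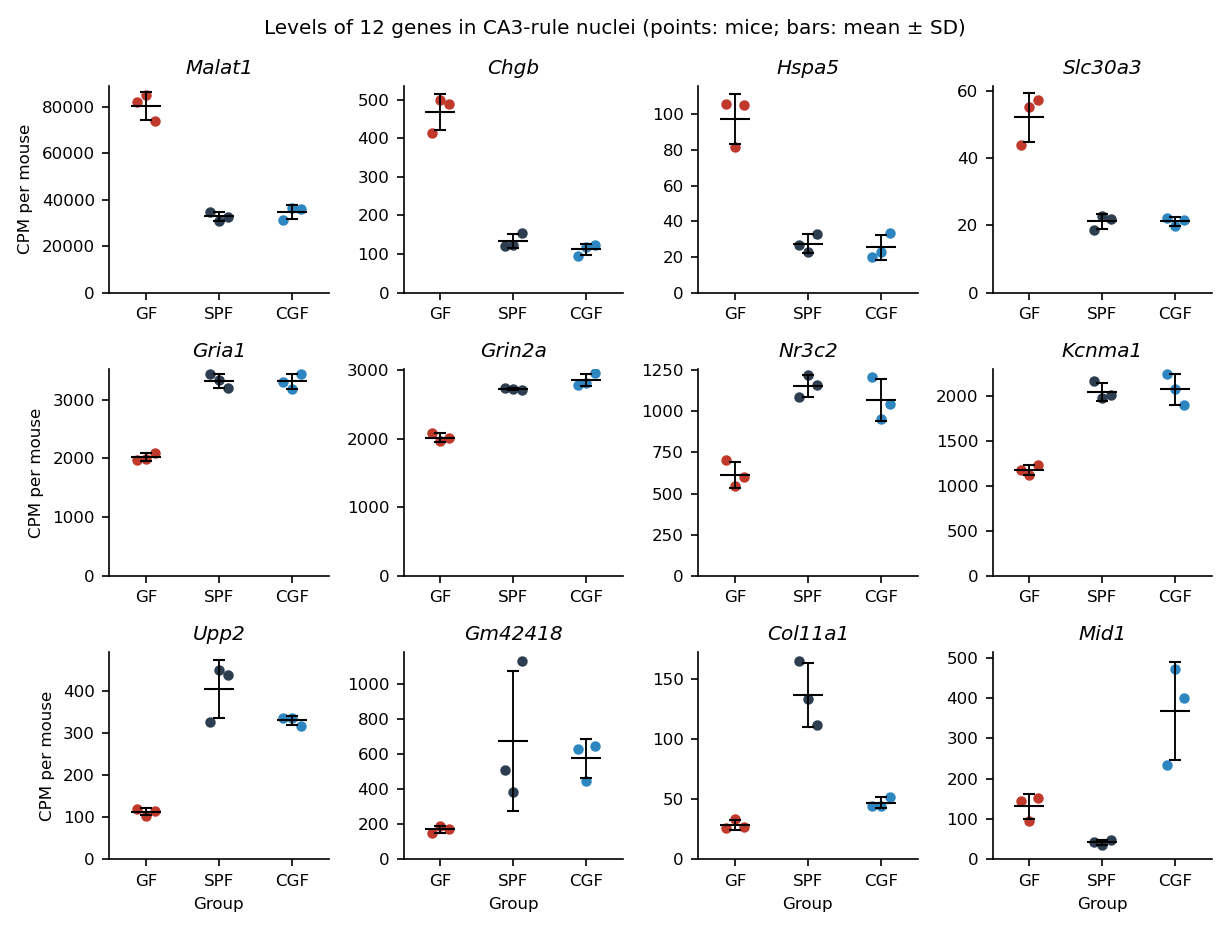
Level in CPM of CA3-rule nuclei for 12 genes named in the text, 1 point per mouse in the GF, SPF and CGF groups of 3 mice, with bars for mean ± SD and axes from 0. GF mice lie above all SPF and CGF mice for Malat1, Chgb, Hspa5 and Slc30a3 and below them for Gria1, Grin2a, Nr3c2, Kcnma1, Upp2, Gm42418 and Col11a1, and for Mid1 the CGF mice are highest.

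Immediate early genes, which neurons switch on within minutes of activity, were higher in GF mice in 10 of 16 cases and lower in 1 (median 1.02; 7 and 0 with the trend removed). Junb (chromosome 8, 84974484 to 84978718, minus strand) stood at 58.3, 36.1 and 41.5 CPM in GF mice, 14.5, 11.2 and 8.39 in SPF mice and 12.7, 13.1 and 8.997 in CGF mice, with no overlap (log2 fold change 1.997, SE 0.22, adjusted p = 5.25e-05; trend removed 1.24, adjusted p = 0.00593). Fos, named after its values were seen, stood at 13.9, 9.85 and 11.4 CPM in GF and 3.18, 0.837 and 2.06 in SPF mice (log2 fold change 2.56 (adjusted p = 0.0001)). Also higher were Ier2 (2.25), Egr4 (2.02), Arc (1.56), Btg2 (1.54), Fosb (1.42), Dusp1 (1.104), Npas4 (0.94) and Egr1 (0.90), all but Btg2 named after their values were seen. Nr4a3 fell by 0.38 (adjusted p = 0.0454). That call was lost when any one of GF 5 (-0.42, 0.0653), GF 6 (-0.29, 0.158), GF 7 (-0.44, 0.0603), SPF 30 (-0.23, 0.211) or SPF 31 (-0.43, 0.0539) was left out. It was also lost with a marker limit of 6 (-0.28, 0.127), with thinned nuclei (-0.26, 0.227) and with the trend removed (-0.31, adjusted p = 0.116). Chaperones were higher in 9 of 13 cases and lower in 0 (median 0.56; 6 and 0 with the trend removed). Hspa5, the chaperone of the endoplasmic reticulum (chromosome 2, 34771970 to 34777547, plus strand), stood at 106, 81.5 and 105 CPM in GF mice, 26.5, 22.8 and 33.01 in SPF mice and 20.1, 22.7 and 33.3 in CGF mice (log2 fold change 1.83, SE 0.18, adjusted p = 2.94e-05; trend removed 1.17, adjusted p = 0.000301).

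Of 74 nuclear genes of oxidative phosphorylation, 63 rose in GF relative to SPF and 0 fell (median 1.004; 34 and 1 with the trend removed, median 0.39). Of 72 ribosomal protein genes 57 rose and 0 fell (median 1.05; 17 and 0, median 0.27). Of 13 mitochondrially encoded genes 11 rose and 0 fell (median 1.46), but 0 passed with the trend removed (median 0.35), and in CA3-like clusters 6 of 11 rose. mt-Co3, a cytochrome oxidase subunit, stood at 996, 1882 and 1826 CPM in GF mice, 292, 198 and 833 in SPF mice and 80.9, 179.6 and 315 in CGF mice. SPF 32 was close to the lowest GF mouse, and the rise (log2 fold change 1.83, SE 0.52, adjusted p = 0.0134) was lost without SPF 30 (1.60, adjusted p = 0.056). RNA of mitochondria is not made in the nucleus, and the GF libraries held more of it as a whole, as given above. Of 18 cytoskeleton genes 12 rose and 2 fell, Map2 (-0.26 (adjusted p = 0.00726)) and Map1b (-0.26 (adjusted p = 0.0131), lost without GF 6 with -0.22 and 0.0518), with 3 and 0 when the trend was removed. All 4 genes linked to ribosomal RNA fell (median -1.03; all 4 with the trend removed, median -1.42). Gm42418, a gene model that lies over ribosomal RNA sequence (chromosome 17, 39846958 to 39848788, plus strand), stood at 151, 188 and 169 CPM in GF mice, 510.3, 382 and 1129 in SPF mice and 630.1, 447 and 647 in CGF mice (log2 fold change -1.99, SE 0.32, adjusted p = 0.000408). AY036118 overlaps it on the other strand and fell by 0.97 (adjusted p = 0.000957), Cmss1 by 1.09 (0.000165) and Lars2 by 0.89 (0.000499). Of 7 nuclear long noncoding RNAs 2 rose and 2 fell (median -0.11; 1 and 3 with the trend removed). Malat1, retained in nuclear speckles (chromosome 19, 5795690 to 5802672, minus strand), stood at 81936, 85119 and 73773 CPM in GF mice, 34671, 31019 and 32601 in SPF mice and 31078, 36385 and 36116 in CGF mice (log2 fold change 1.29, SE 0.079, adjusted p = 3.32e-06; trend removed 0.71, adjusted p = 3.35e-05). Snhg11 rose by 0.59 (adjusted p = 0.000663) (trend removed 0.16, adjusted p = 0.284) and Mirg fell by 0.63 (adjusted p = 5.7e-05).

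Of 14 CA3 markers outside the rule 5 rose and 5 fell in GF relative to SPF (median -0.15). Over all tested genes 24.1% rose and 21.6% fell. The tally of these markers was not made with the trend removed. Chgb, a granin of dense-core vesicles (chromosome 2, 132781278 to 132795079, plus strand), stood at 413, 499 and 489.8 CPM in GF mice, 122, 124 and 154 in SPF mice and 95.9, 118 and 124 in CGF mice, far above both (log2 fold change 1.81, SE 0.12, adjusted p = 5.3e-06; trend removed 1.47, adjusted p = 5.25e-06). The other rises were Bok (0.95), Mas1 (0.62), Ociad2 (0.49) and Cdh24 (0.31), and the falls Homer3 (-1.02), St18 (-0.73), Spock1 (-0.54), Cpne4 (-0.43) and Elavl2 (-0.37), named after their values were seen. The summed level of these 14 markers was 3223 to 3293 CPM in GF mice, 3612 to 4187 in SPF mice and 4412 to 4575 in CGF mice.

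Among called genes without overlap and with a mean of 50 CPM or more over the 9 mice, the largest rises besides Hspa5, mt-Co3 and Chgb were Ssbp4 and Fth1. Ssbp4, which binds single-stranded DNA (chromosome 8, 70597490 to 70608872, minus strand), stood at 241, 263 and 240.1 CPM in GF mice, 69.3, 68.3 and 68.2 in SPF mice and 85.1, 78.02 and 93.8 in CGF mice (log2 fold change 1.85, SE 0.08, adjusted p = 3.77e-07). Fth1, the heavy chain of ferritin, stood at 384, 544 and 473, 93.4, 111 and 212 and 56.9, 87.1 and 162 CPM in the same groups (log2 fold change 1.75, SE 0.35, adjusted p = 0.00167). The largest falls besides Gm42418 were Col11a1, AC149090.1, Upp2 and Gm47283. Col11a1, a fibrillar collagen (chromosome 3, 114030540 to 114220718, plus strand), stood at 26.1, 33.2 and 26.5 CPM in GF mice, 165, 134 and 112 in SPF mice and 44.2, 44.5 and 52.1 in CGF mice (log2 fold change -2.27, SE 0.14, adjusted p = 3.32e-06). Upp2, a uridine phosphorylase (chromosome 2, 58567298 to 58792971, plus strand), stood at 120.2, 103 and 114, 325, 449 and 439 and 335, 337 and 318 CPM (log2 fold change -1.84, SE 0.12, adjusted p = 3.32e-06). The gene models AC149090.1, on an unplaced scaffold, and Gm47283, on chromosome Y, fell by 1.92 and 1.77 (adjusted p = 0.00524 and 4.75e-05), AC149090.1 with SPF values as far apart as 234, 652 and 179.9 CPM. All these falls also passed with the trend removed.

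GF and CGF mice had the same origin and were parted at random, and GF against CGF gave a like number of calls. CGF mice also lived with SPF mice, and the GF libraries stood apart from theirs as well, as given above. Colonization, that company and any handling of libraries that went with the group cannot be told apart here. Of 14621 genes 6741 were called (46.1%), 3543 higher (24.2%) and 3198 lower (21.9%) in GF relative to CGF mice, and 4007 (27.4%) with the trend removed. GF mice serve in both comparisons, so these are no independent repeat of GF against SPF. Kainate receptor genes fell in 2 of 6 cases (Neto1 -0.92 (adjusted p = 1.84e-05), Grik2 -0.76), AMPA receptor genes in 7 of 19 with 5 higher, NMDA receptor genes in 4 of 6 with Grin2d higher (0.45), GABA receptor genes in 12 of 14 with Gabbr1 higher (0.56) and mossy fibre synapse genes in 9 of 12 with Igsf8 higher (0.93). Their medians were -0.24, 0.01, -0.44, -0.57 and -0.55, against 0.025 over all genes. With the trend removed 1 of 6, 2 of 19, 3 of 6, 4 of 14 and 4 of 12 genes of these lists fell and 0, 5, 1, 1 and 1 rose, with medians of 0.12, -0.01, -0.23, -0.17 and -0.098. Grik2 then had -0.10, adjusted p = 0.389. The rise of Grin2d was lost in 16 of 21 alternatives, among them the removed trend (0.44, adjusted p = 0.0596), CA3-like clusters (0.29, adjusted p = 0.422), thinned nuclei (0.18, 0.676) and each of GF 5 (0.44, 0.0884), GF 6 (0.47, 0.0683), GF 7 (0.44, 0.0921), SPF 30 (0.45, 0.0502), CGF 17 (0.40, 0.122) and CGF 19 (0.40, 0.108) left out. Nectin3 passed here (-0.40 (adjusted p = 0.00561)), but not with thinned nuclei (-0.21, adjusted p = 0.114) or with the trend removed (-0.054, adjusted p = 0.695). Nr3c2, Nr3c1 and Sgk1 fell by 0.80, 0.70 and 0.58, and Fkbp4 (1.13), Tsc22d3 (0.74) and Per1 (0.47) rose. With the trend removed Sgk1 (-0.26, adjusted p = 0.0572) and Per1 (0.048, adjusted p = 0.83) did not pass, nor did Per1 in CA3-like clusters (0.44, adjusted p = 0.0513), with thinned nuclei (0.21, 0.508) or by DESeq2 (0.44, 0.057). Tsc22d3 lost its call without GF 5 (0.77, 0.0603), GF 7 (0.64, 0.116), CGF 17 (0.60, 0.128) or CGF 18 (0.78, 0.0678), with thinned nuclei (0.85, 0.0756) and by DESeq2 (0.71, 0.0821). Immediate early genes rose in 11 of 16 cases with Nr4a3 lower (-0.40), oxidative phosphorylation genes in 62 of 74 with 1 lower, ribosomal protein genes in 55 of 72 and mitochondrially encoded genes in 12 of 13. With the trend removed 6, 38, 20 and 8 genes of these 4 lists rose and 0, 3, 1 and 0 fell, and Nr4a3 did not pass (-0.33, adjusted p = 0.094). Nr4a3 also lost its call with a marker limit of 6 (-0.34, 0.0633) and without GF 5 (-0.44, 0.0542), GF 6 (-0.31, 0.135), GF 7 (-0.46, 0.0503), CGF 17 (-0.31, 0.142) or CGF 19 (-0.37, 0.0853). Among genes of 50 CPM or more without overlap the 5 largest rises were mitochondrial, with mt-Co3 (3.03 (adjusted p = 0.000815)) and mt-Cytb (2.81 (adjusted p = 0.00199)) ahead of mt-Nd1 (2.73), mt-Co2 (2.62) and mt-Nd4 (2.46). By the same limits the largest falls were Gm42418 (-1.76 (adjusted p = 0.000735)), Upp2 (-1.55 (adjusted p = 7.36e-06)), Mid1 (-1.49 (adjusted p = 0.00029)), Cmss1 (-1.33 (adjusted p = 3.89e-05)) and Lhfpl3 (-1.25 (adjusted p = 0.000402)). Lhfpl3 leads the OPC-like cluster and did not pass in CA3-like clusters (-0.72, adjusted p = 0.102). Of markers of other cell types, 3 of 7 dentate granule, 3 of 5 astrocyte and 1 of 5 oligodendrocyte genes fell and 1 dentate granule and 4 of 7 interneuron genes rose in GF relative to CGF mice (list medians -0.60, -0.47, -0.15 and 0.69). The summed dentate granule and astrocyte lists given above, the latter mostly Slc4a4, did not overlap between these groups. Their part in these results was not tested.

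Between CGF and SPF mice few genes passed in CA3-rule nuclei. Of 14621 genes 58 passed (0.397%), 34 higher (0.233%) and 24 lower (0.164%) in CGF mice, and 1919 (13.1%) had an unadjusted p under 0.05. Of 454 genes in the 21 function lists 0 passed by edgeR, 77 had an unadjusted p under 0.05 and 2 of the same 454 passed by DESeq2, and the mitochondrially encoded median was -0.95. Mid1, a ubiquitin ligase of microtubules that in laboratory mice lies across the pseudoautosomal boundary of chromosome X, stood at 234, 472 and 399.99 CPM in CGF, 43.2, 34.7 and 46.3 in SPF mice and 145, 94.8 and 152 in GF mice. The 3 groups did not overlap, and CGF were above SPF mice (log2 fold change 3.16, SE 0.25, adjusted p = 0.000426). Thsd4, an extracellular matrix protein, stood at 209, 181 and 214 CPM in CGF and 59.8, 52.96 and 92.7 in SPF mice (log2 fold change 1.56, SE 0.21, adjusted p = 0.00984), without SPF 30 at 1.47 with adjusted p = 0.0589. Col11a1 was lower, as its values above show (log2 fold change -1.55, SE 0.14, adjusted p = 0.0005). Smaller rises were Gm13269 (0.66 (adjusted p = 0.00783)), which lies in Cacnb2 on the opposite strand, 4930419G24Rik (0.73 (adjusted p = 0.011)) and Gm26905 (0.82 (adjusted p = 0.0353)), and the only other falls without overlap that met the naming rule were Mir670hg (-0.65 (adjusted p = 0.0384)) and Efr3b (-0.51 (adjusted p = 0.0399)). Gm26905, Mir670hg and Efr3b lost their calls in 7, 5 and 7 of the 9 fits that left out a mouse. In CA3-like clusters 4930419G24Rik (0.55, adjusted p = 0.235) and Gm26905 (0.62, adjusted p = 0.145) did not pass. 4930419G24Rik also lost its call with a marker limit of 3 (0.63, adjusted p = 0.0614) and with thinned nuclei (0.52, adjusted p = 0.21), Mir670hg under both (-0.60, 0.0614 and -0.47, 0.254) and Efr3b with thinned nuclei (-0.45, 0.198) and with the trend removed (-0.48, 0.0601). With only these 2 groups Gm26905 (0.82, adjusted p = 0.0869) and Efr3b (-0.51, 0.0704) did not pass, nor did Gm26905 with marker limits of 3 (0.81, 0.0697), 6 (0.71, 0.1001) or 11 (0.53, 0.244). The number of calls in these fits was 16 without CGF 17, 17 without CGF 18, 19 without CGF 19, 20 without SPF 30, 30 without GF 7, 36 without GF 6, 37 without SPF 32, 40 without GF 5 and 48 without SPF 31.

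Whether the GF to SPF difference was particular to CA3 was tested as an interaction, with the mouse as a block, against the CA1 and the dentate granule nuclei of the same mice. Those nuclei were chosen by rule and not clustered, so they may hold other types. The subiculum and cortex list summed to 469 to 977 CPM per mouse in CA1 nuclei and to 300 to 678 CPM in CA3-rule nuclei. Against CA1, 4 of 14178 genes passed (0.0282%), with 1048 (7.39%) at an unadjusted p under 0.05. Col11a1 stood at 25.3, 31.97 and 25.6 CPM in GF and 171, 139 and 114 in SPF mice in CA3-rule nuclei, and at 30.8, 26.6 and 31.6 and 52.8, 63.3 and 56.97 in CA1 nuclei, a larger difference in CA3-rule nuclei (difference of log2 fold changes -1.42, SE 0.22, adjusted p = 0.00762). Mid1 was higher in GF mice in both, by less in CA3-rule nuclei (141, 91.3 and 147 against 44.8, 36.1 and 47.03 CPM) than in CA1 nuclei (166, 99.8 and 172 against 23.8, 20.1 and 33.2 CPM; difference -0.94, SE 0.13, adjusted p = 0.00372). Clmp, an adhesion molecule (chromosome 9, 40685962 to 40785319), was at 184, 178 and 136 in GF and 177, 184 and 167 CPM in SPF mice in CA3-rule nuclei but at 15.6, 12.99 and 13.8 and 29.4, 35.5 and 36.7 CPM in CA1 nuclei (difference 1.16, SE 0.19, adjusted p = 0.0115). The fourth gene, Lrmp, was at most 2.21 CPM in CA3-rule nuclei and is named after its values were seen. With CA3-like clusters set against the same CA1 nuclei 72 genes passed (0.513%), these 4 among them. With a mouse left out, 0 genes passed without GF 5 (935 at an unadjusted p under 0.05), 8 without GF 6 and 2 without GF 7 or SPF 32. Col11a1 lost its call without GF 5 (-1.31, adjusted p = 0.195) or GF 7 (-1.33, 0.0757) and Mid1 without GF 5 (-0.92, adjusted p = 0.0517). Clmp lost it without GF 5 (1.16, adjusted p = 0.0892), GF 6 (1.06, 0.0581), SPF 31 (1.15, 0.0592) or SPF 32 (1.06, 0.0866). Without the mouse as a block no gene passed edgeR's test, and 469 had an unadjusted p under 0.05.

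Against dentate granule nuclei 40 genes passed (0.282%), 8 with a higher (0.0564%) and 32 with a lower difference (0.226%) in CA3-rule nuclei, and 1631 (11.5%) had an unadjusted p under 0.05. Slit2, an axon guidance ligand (chromosome 5, 47983138 to 48307733), was lower in GF mice by less in CA3-rule nuclei (327, 337 and 338 in GF against 559.8, 599 and 506 CPM in SPF mice) than in dentate nuclei (25.2, 28.9 and 21.9 against 97.3, 120.2 and 82.4 CPM; difference 1.25, SE 0.19, adjusted p = 0.00774). The potassium channel gene Kcnc2 differed likewise (1.09, SE 0.22, adjusted p = 0.0314), and Mdga1, which blocks neuroligins, was higher in GF mice in CA3-rule and lower in dentate nuclei, with a difference of 1.29, SE 0.25, adjusted p = 0.0221. Palmd was at 52.1, 42.9 and 45.6 CPM in GF and 76.6, 75.03 and 50.5 in SPF mice in CA3-rule nuclei, but at 49.1, 43.5 and 47.5 and 23.5, 15.6 and 36.4 CPM in dentate nuclei, so that the order of the groups was opposite (difference -1.44, SE 0.25, adjusted p = 0.00842). Fam13a and Myo16 had differences of -0.95, SE 0.17, adjusted p = 0.00996 and of -0.83, SE 0.18, adjusted p = 0.044. With CA3-like clusters set against the same dentate granule nuclei 106 genes passed (0.755%), 30 of the 40 among them. With a mouse left out, 8 genes passed without SPF 30, 9 without GF 7, 10 without GF 6, 24 without SPF 31 and 26 without CGF 17. Slit2 kept its call in all 9 of these fits. Palmd lost it without GF 7 (-1.41, adjusted p = 0.0561), SPF 30 (-1.32, 0.0599) or SPF 31 (-1.05, 0.0738), and Kcnc2, Mdga1, Fam13a and Myo16 lost it in 5, 4, 4 and 7 of the 9 fits. Without the mouse as a block no gene passed edgeR's test, and 909 had an unadjusted p under 0.05. No kainate, NMDA or GABA receptor gene and neither corticosteroid receptor was among the 4 or the 40. With 0.0282% and 0.282% of all genes called, this absence says nothing about these genes in particular. Among the 40, chosen here after their values were seen, were Syt1 (difference -0.38, adjusted p = 0.0221), Chgb (0.70, adjusted p = 0.00774), Map1b (-0.44, adjusted p = 0.0381) and, from the AMPA receptor list, Nptxr (0.64, adjusted p = 0.0353). On simulated counts this test found 38.0% of genes changed by a log2 fold change of 1 against CA1 and 44.0% against dentate nuclei. For a change of 0.5 it found 3.06% and 4.08%, so genes that did not pass are not shown to act alike. The simulated counts held no effect of the mouse shared by its sums, which the block takes out of the real counts. How many changed genes the test finds in the real counts was therefore not measured.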

How the data were processed

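Hip of 9 mice was measured by droplet-based single-nucleus RNA sequencing (10x Genomics), 1 library per mouse. The authors deposited counts of UMIs per gene and barcode, whole numbers that Cell Ranger 3.1.0 made on mm10 with Ensembl gene models, with no normalization. Kept were barcodes with at least 200 genes and no more than 10% of UMIs from mitochondrial genes. Whether intronic reads were counted is not given in the sources used here. Groups came from the sample labels, and the mouse is the replicate.

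UMIs of the members were summed per mouse and tested with edgeR 4.0.16 (filterByExpr, TMM, glmQLFit, glmQLFTest) in 1 fit of the 9 mice, with Benjamini-Hochberg adjustment over all 14621 genes and a threshold of 0.05. The 17 genes of the membership rule were left out of the tests and kept in library sizes. The standard error (SE) was taken as the size of the log2 fold change over the root of the F statistic. Differences from CA1 and dentate granule nuclei were tested as interactions over 27 sums with the mouse as a block, since the 3 sums of a mouse come from the same animal. The groups share no mouse numbers, so their own comparisons have no pairing. Shares and depth were compared by exact permutation over mice, for which 3 groups allow 1680 arrangements and a smallest p of 0.00357. Clusters used 2000 variable genes, counts scaled to 10000 per nucleus, 20 components, 20 neighbours and Leiden resolution 1, without integration. A cluster was named from at least 3 raised markers, and its 10 leading genes were checked for markers of other types. Gene span and GC content came from GENCODE vM21, which held 30843 genes (99.8%) of the matrices.

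The members, gene lists, marker lists and tests were chosen with earlier results of these data known. Named genes were all kainate receptor, stress hormone and ribosomal-RNA-linked genes, up to 2 genes per direction with the smallest p in each other list, 11 genes of interest, and in each comparison the 5 largest called rises and falls with a mean of 50 CPM or more over the 9 libraries and no overlap (3 per direction for the interactions, with the same mean limit only). Genes outside this rule are marked where they appear, and some genes that it names are not reported here. Alternatives were DESeq2 1.42.0, RLE factors, no filter, only the 2 groups compared, marker limits of 3, 6 and (chosen after seeing the data) 11, a second marker, nuclei thinned to 5000 UMIs, likely doublets removed, the length and GC trend of each library removed as an offset, the CA3-like clusters only (also chosen after seeing the data), no block, and each mouse left out. Doublets were kept in the main fit.

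Simulated counts for GF against SPF had 197 changed genes among 14369 and no trend with gene span. There edgeR found 27.6% of genes changed by a log2 fold change of 0.5 and 61.6% of those changed by 1. It also made 12 false calls. The real counts had many more calls and a trend with span, so the false calls among those were not measured. The other tools were Python 3.11.15 (scipy 1.17.1, numpy 2.4.6, matplotlib 3.10.9, leidenalg 0.10.2, igraph 0.11.9, scikit-learn 1.9.0, pandas 2.3.3) and R 4.3.3 with limma 3.58.1.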

Additional observations from a re-analysis of the deposited data

Results flagged for a closer look

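The difference between GF and SPF mice in CA3-rule nuclei departed from that in CA1 nuclei for 4 genes of 14178 by the test of the difference itself, 3 of them under the naming rule with differences of log2 fold changes of 1.16 for Clmp, -1.42 for Col11a1 and -0.94 for Mid1. It departed from that in dentate granule nuclei for 40 genes, among them Mdga1 (1.29), Slit2 (1.25), Kcnc2 (1.09), Palmd (-1.44), Fam13a (-0.95) and Myo16 (-0.83). In 12 alternatives each, the calls held in 10 for Mid1, 9 for Col11a1, 7 for Clmp, 11 for Slit2, 8 for Palmd, 7 for Mdga1, 7 for Fam13a, 6 for Kcnc2 and 4 for Myo16. With 3 mice a group no single sample was tested for standing apart.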

How the results depend on the processing

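The calls of GF against SPF (6687) and of GF against CGF (6741) stayed within a factor of 1.5 in all alternatives but those that thinned nuclei to 5000 UMIs (4362 for GF against SPF, with fewer genes tested) or removed the length and GC trend (3909 and 4007), and ranged from 5581 to 6724 and from 5603 to 6996 with a mouse left out. The 58 calls of CGF against SPF became 225 without a filter on low counts, 25 with only these 2 groups, 36 with a marker limit of 3, 33 with 6, 20 with thinned nuclei, 131 by DESeq2, and 16 to 48 with a mouse left out. The 4 calls against CA1 and 40 against dentate nuclei became 100 and 288 without the filter, 72 and 106 in CA3-like clusters, and 0 to 8 and 8 to 46 with a mouse left out. Without the replicate block, which pairs the sums of a mouse, they became 0 and 0. The causes were not tested.

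The GF minus SPF share of CA3-rule nuclei (-0.152 percentage points) turned to 0.753 over Slc17a7 nuclei, 0.887 with a marker limit of 3 and 2.32 with thinned nuclei, and GF minus CGF (-0.0781) to 0.937 and 2.63 with the latter 2 and 0.189 in CA3-like clusters. CGF minus SPF (-0.0742) turned to 1.35 over Slc17a7 nuclei. With a mouse left out these ranged from -0.588 to 0.547, -0.514 to 0.621 and -0.719 to 0.381. The differences in median UMIs ranged from -3316 to -2374, -2634 to -1314 and -1495 to -176.

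Named genes of GF against SPF kept direction and call in 1732 of their alternative values and gained a call in 6. They lost the call without turning sign in 52, and in another 52, some with a lost call as well, they turned sign (log2 fold changes). With the trend removed these were Grik1 (0.25), Grik2 (0.059), Grik3 (0.32), Grik5 (0.13), Grin2a (0.016), Grin2b (0.23), Grm5 (0.044), Gria2 (0.11), Lrrtm1 (-0.0061), Vamp2 (-0.11), Fkbp5 (0.21), Per1 (-0.18), Crhbp (-0.30), Map2 (0.14), Nectin3 (0.13) and Camk2a (0.12). With a marker limit of 3 they were Grik3 (0.014), Neto2 (-0.067), Hsd11b1 (-0.021) and Camk2a (0.0057), in CA3-like clusters Grik3 (0.24), Per1 (-0.038) and Ntrk2 (-0.055), with a limit of 11 Grik3 (0.35), with thinned nuclei Grik5 (0.093), Nectin3 (0.0010) and Camk2a (0.047), by DESeq2 Neto2 (-0.0036), Hsd11b1 (-0.040) and Crhbp (-0.0079), and Hsd11b1 also with RLE factors (-0.030), no filter (-0.0054) and a second marker (-0.026). With a mouse left out, sign turned for Grik1 (-0.54 to 0.035), Grik3 (-0.45 to 0.16), Grik5 (-0.12 to 0.033), Neto2 (-0.072 to 0.10), Hsd11b1 (-0.17 to 0.22), Crhbp (-0.21 to 0.38) and Ntrk2 (-0.026 to 0.13).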
